A study of Danio rerio with 4 samples.

Results

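Helitrons are DNA transposons that move by a rolling-circle mechanism. The repeat table held 6 names that begin with Helitron among 11258 repeat names, and these 6 were taken by name alone. They are Helitron-1_DR, Helitron-2_DR, Helitron-1N1_DR, Helitron-N1_DR, Helitron-N2_DR and Helitron-N3_DR. The libraries compare zebrafish larvae carrying the uhrf1(hi272) mutation, called mutants here, with siblings of normal appearance at 5 days (120 h) after fertilisation. The labels state no other allele or agent, and they give no genotype for the siblings, which were sorted by appearance. Each group had 2 libraries of total RNA, labelled as pooled whole larvae and made after removal of ribosomal RNA. The sample labels give 10 larvae per extract, and the design text gives 10 to 20 larvae from 2 clutches. The labels do not tie a replicate to a clutch, so p-values cover no spread beyond that between these libraries. In the edgeR fits below that spread is moderated over all tested names.

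An autonomous Helitron encodes a single protein that joins a replication-initiator (Rep) endonuclease to a helicase, and this protein nicks the element and peels off a strand while host enzymes fill in the gap. Unlike cut-and-paste transposons such as hAT, Tc1/Mariner, EnSpm and Harbinger elements, Helitrons do not duplicate the target site on insertion. In vertebrate genomes most transposon copies carry methylated CpG sites. Uhrf1 binds newly replicated, half-methylated DNA and brings the maintenance methyltransferase Dnmt1 to it. The names follow the style of the Repbase repeat collection, in which an N marks a non-autonomous family whose copies lack the full protein and depend on that of an autonomous relative. By this style Helitron-1_DR and Helitron-2_DR are autonomous, and Helitron-1N1_DR is named as a non-autonomous relative of Helitron-1_DR. The counts do not separate reads from a Helitron's own transcript from reads of a copy that lies inside a gene's transcript, an intron or other RNA.

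Gene reads numbered 571978 (mutant replicate 1), 564941 (mutant replicate 2), 613370 (sibling replicate 1) and 812167 (sibling replicate 2). Repeat reads in the same order numbered 9671737, 10559130, 2108906 and 1611818. There were thus 16.9 and 18.7 repeat reads per gene read in mutants, against 3.44 and 1.98 in siblings. The labelled tissue, the whole larva, was checked against a few marker genes. Of all gene reads, hepatocyte markers made up 0.0614% and 0.0345% in mutants, compared with 13.4% and 11.6% in siblings, and all 7 measured markers were lower in mutants. Fast muscle markers made up 3.58% and 3.15% in mutants, compared with 0.0106% and 0.00751% in siblings, and all 5 measured were higher. Neuronal markers were counted 310 and 307 times in mutant libraries but 0 and 1 times in sibling libraries, where elavl3 and elavl4 were at 0. The lens markers crybb1 and crygm2d1 were counted 164 and 228 times in mutant libraries and were at 0 in both sibling libraries. For exocrine pancreas markers the mutant counts were 9 and 10, sibling replicate 1 held 107 and sibling replicate 2 held 68413, and for erythrocyte markers the counts were 10 and 10 in mutants against 208 and 3139. Both sibling libraries thus lacked defining markers of nerve and lens that a whole larva holds, and held few reads of fast muscle markers. Every mutant-to-sibling difference below rests on these libraries. Marker makeup differed between the groups, so the part of tissue makeup cannot be told apart from that of the mutation. That part was not tested. In such bulk RNA, fewer cells of a type and less RNA per cell cannot be told apart.

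All 6 Helitron names rose in the mutant libraries relative to scaled gene reads, by 1.75-fold to 6.33-fold with TMM scaling and by 5.41-fold to 19.6-fold with plain totals of gene reads. The largest rises were those of the non-autonomous Helitron-N1_DR and Helitron-1N1_DR, and the smallest those of Helitron-2_DR and Helitron-N2_DR. This rise was shared by most repeats: of 3313 repeat names tested, 74.1% were higher in mutants and 4.53% lower (quasi-likelihood test of edgeR, with a Benjamini-Hochberg adjusted p below 0.05 as threshold), and with plain totals 92.2% were higher. The median log2 fold change was 1.54 over the 6 Helitron names and 1.91 over all tested names. Over the 8133 tested genes it was 0.483 in the same scaling, so the typical gene was not at 0. Of the 6 names, Helitron-2_DR at 0.80 and Helitron-N2_DR at 0.93 lay nearest to that gene median. All 6 passed the count filter, and the fewest reads of any member in a library were 340. Levels are given per 1000 gene reads of the same library after TMM scaling, and a read count also depends on the length and copy number of an element, which were not used here.

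**Figure D1:**
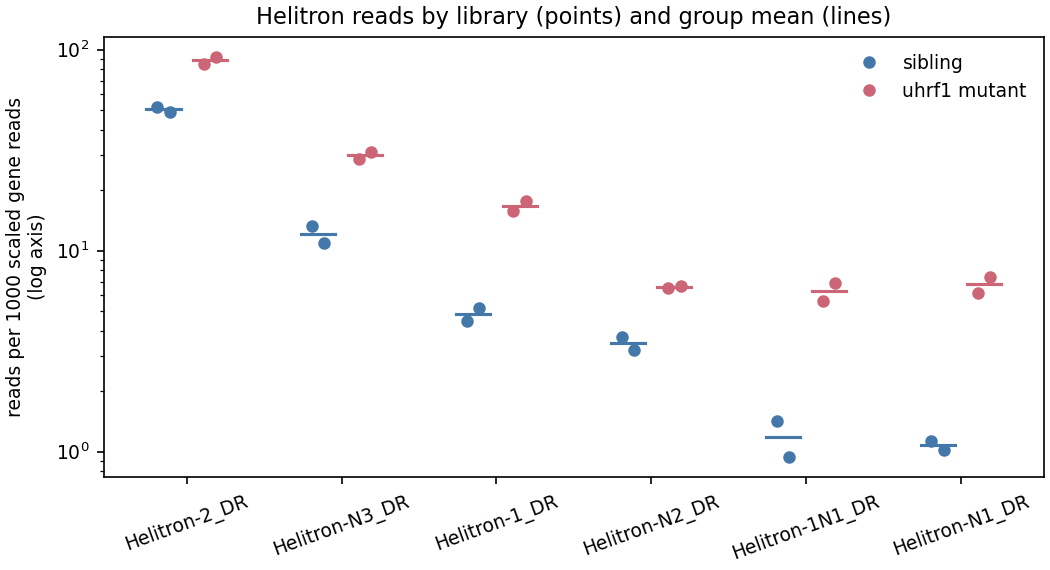
Reads of each Helitron name per 1000 scaled gene reads, on a log axis. Points are the 4 libraries and lines are group means (n = 2). For each name the mutant libraries lie above both sibling libraries, with the widest gap for Helitron-N1_DR, whose mean was 6.80 in mutants and 1.07 in siblings. Most repeats were higher in mutants (74.1% of 3313 tested names), and how many of them also had no overlap between the groups was not counted.

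Helitron-2_DR, an autonomous family by its name, had the most Helitron reads. It was counted 77959 and 85967 times in mutant libraries and 19287 and 17796 times in sibling libraries, and it ranked 14 among all repeat names by total reads. Its level was 84.6 and 92.3 per 1000 scaled gene reads in mutants, against 52.1 and 49.1 in siblings. The log2 fold change was 0.80 ± 0.25 (standard error, n = 2 libraries per group, edgeR adjusted p = 0.0123). When a mutant library was left out, the siblings alone give the spread. The log2 fold change was then no smaller, at 0.98 without mutant replicate 1 and 0.87 without mutant replicate 2, but the rise did not pass. It passed when either sibling library was left out (adjusted p = 0.000154 and 0.0011), where the mutants alone give the spread.

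Helitron-1_DR, the other autonomous family by name, was counted 14518 and 16447 times in mutant libraries and 1661 and 1888 times in sibling libraries. Its level was 15.8 and 17.7 per 1000 scaled gene reads in mutants, against 4.49 and 5.21 in siblings. Both mutant libraries lay at least 3.02-fold above the higher sibling library. The log2 fold change was 1.78 ± 0.26 (edgeR, adjusted p = 0.00032).

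Helitron-1N1_DR, named as its non-autonomous relative, was counted 5202 and 6429 times in mutant libraries and 524 and 340 times in sibling libraries. Its level was 5.64 and 6.90 per 1000 scaled gene reads in mutants, against 1.42 and 0.939 in siblings, so the siblings differed from each other more than for the other names. The log2 fold change was 2.41 ± 0.31 (edgeR, adjusted p = 0.000205). The log2 ratio of Helitron-1_DR to Helitron-1N1_DR reads was 1.42 ± 0.09 in mutants and 2.07 ± 0.57 in siblings (mean ± SD, n = 2), so the difference between these names was of similar size to the spread of the siblings.

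Helitron-N1_DR, a non-autonomous family, was counted 5675 and 6929 times in mutant libraries and 419 and 367 times in sibling libraries. Its level was 6.16 and 7.44 per 1000 scaled gene reads in mutants, against 1.13 and 1.01 in siblings. The lower mutant library lay 5.43-fold above the higher sibling library, the widest gap of the 6 names. The log2 fold change was 2.66 ± 0.29, or 6.33-fold (edgeR, adjusted p = 0.000106).

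Helitron-N2_DR and Helitron-N3_DR, also non-autonomous by name, rose less. Helitron-N2_DR was counted 6005 and 6207 times in mutant libraries and 1380 and 1159 times in sibling libraries, which are 6.51, 6.66, 3.73 and 3.20 per 1000 scaled gene reads. Its log2 fold change was 0.93 ± 0.26 (edgeR, adjusted p = 0.00883), and it was 1.05 without mutant replicate 1 (adjusted p = 0.0903) and 1.04 without mutant replicate 2 (adjusted p = 0.0889), where it did not pass. It passed without either sibling library (adjusted p = 5.79e-06 and 0.000441). Helitron-N3_DR, the name with the second most Helitron reads, was counted 26370 and 28959 times in mutant libraries and 4930 and 3964 times in sibling libraries. These are 28.6 and 31.1 per 1000 scaled gene reads in mutants, against 13.3 and 10.9 in siblings. The log2 fold change of Helitron-N3_DR was 1.298 ± 0.26 (edgeR, adjusted p = 0.00138).

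Summed over the 6 names, Helitron reads came to 147 and 162 per 1000 scaled gene reads in mutants, against 76.2 and 70.4 in siblings. The means were 155 ± 10.4 and 73.3 ± 4.10 (mean ± SD, n = 2), a 2.11-fold difference, or 1.08 on the log2 scale, that was larger than the spread within either group. With plain totals of gene reads in place of TMM it was 2.73 on the log2 scale, and the median of all tested repeats was then 3.53. An exact two-sided permutation test over the 4 libraries gave p = 0.333, the smallest value that 2 libraries against 2 allow. As a share of all repeat reads the groups overlapped. Helitrons took 1.40% (Wilson 95% interval 1.40% to 1.41%) in mutant replicate 1, 1.43% (1.42% to 1.44%) in mutant replicate 2, 1.34% (1.32% to 1.35%) in sibling replicate 1 and 1.58% (1.56% to 1.60%) in sibling replicate 2. The exact permutation p for this share was 1. Simple, satellite and structural RNA names were then left out. As a share of interspersed repeat reads alone, Helitrons took 1.88% in each mutant library, below the 2.15% and 2.51% of the siblings. This difference was -0.31 on the log2 scale (exact permutation p = 0.333). Helitron-2_DR held most of these Helitron reads, so the sum mostly follows that name. A smaller share in mutants was not particular to Helitrons. EnSpm names took 2.18% of all repeat reads in each mutant library, against 2.29% and 2.32% in siblings, while hAT, Tc1/Mariner and Harbinger names took larger shares in mutants. Interspersed repeats made up 74.8% and 76.1% of all repeat reads in mutants, against 62.1% and 63.1% in siblings. Ribosomal RNA names made up 9.19% and 8.20%, against 18.2% and 12.1%. The total under the share of all repeat reads thus differed in makeup between the groups. The Wilson intervals cover counting error only. Without sibling replicate 2 the Helitron share was higher in mutants, by 0.08 on the log2 scale, and without sibling replicate 1 it was lower, at -0.16.

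The makeup of the Helitron reads differed between the groups. Helitron-2_DR took 57.4% and 57.0% of them in mutants, against 68.4% and 69.8% in siblings. Helitron-N1_DR took 4.18% and 4.59% against 1.49% and 1.44%, and Helitron-1N1_DR 3.83% and 4.26% against 1.86% and 1.33%. Helitron-1_DR took 10.7% and 10.9% against 5.89% and 7.40%, so it too had a larger part in the mutants. The Helitron-N3_DR share was 19.4% and 19.2% against 17.5% and 15.5%, and the Helitron-N2_DR share 4.42% and 4.11% against 4.89% and 4.54%. These shares need no scaling between libraries. Scaled to the reads of Helitron-2_DR itself, a setting added after the values were seen, Helitron-N1_DR was higher in mutants by 1.86 ± 0.20 on the log2 scale, Helitron-1N1_DR by 1.61 ± 0.25 and Helitron-1_DR by 0.97 ± 0.20 (edgeR over all repeats, adjusted p = 0.0023, 0.00481 and 0.0098). Helitron-2_DR is the Helitron with the smallest change, and against it 48.7% of all repeats were higher, with a median of 1.12, so Helitron-1_DR lay below the median repeat. Helitron-N3_DR was at 0.50 ± 0.19 and Helitron-N2_DR at 0.13 ± 0.19 and neither passed (adjusted p = 0.0575 and 0.592).

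**Figure D2:**
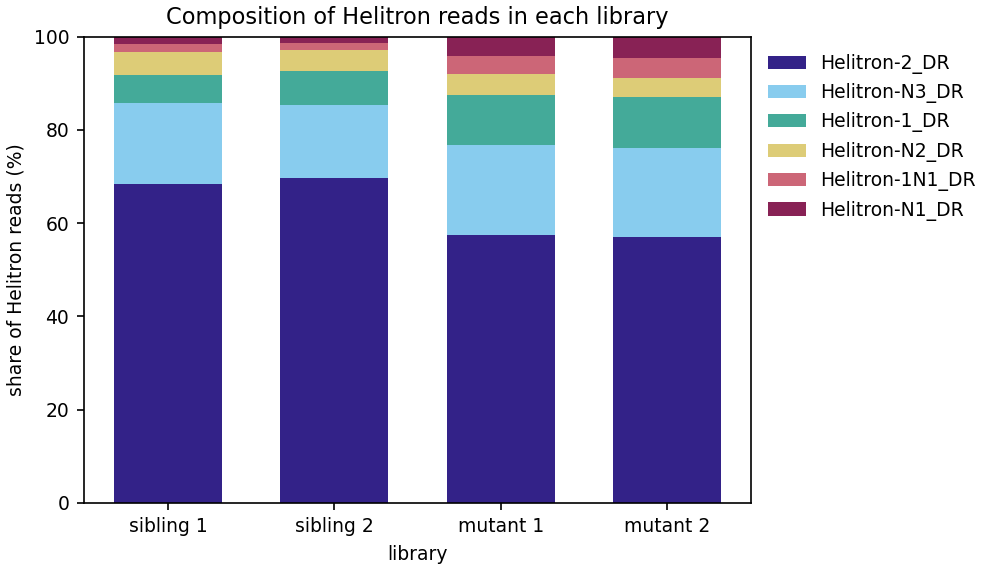
Share of all Helitron reads taken by each of the 6 names in the 4 libraries; each bar sums to 100%. Helitron-2_DR takes 68.4% and 69.8% in the siblings and 57.4% and 57.0% in the mutants, and the parts of Helitron-1_DR, Helitron-1N1_DR and Helitron-N1_DR are larger in the mutants.

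Because most repeats were higher in mutants, a second fit scaled each library by its repeat reads with TMM and so set each name against the bulk of repeats. In this fit Helitron-N1_DR rose by 0.88 ± 0.15 and Helitron-1N1_DR by 0.66 ± 0.14 on the log2 scale (edgeR, adjusted p = 0.0101 and 0.0223). Helitron-2_DR fell by 0.98 ± 0.12, Helitron-N2_DR fell by 0.85 ± 0.12 and Helitron-N3_DR fell by 0.48 ± 0.09 (edgeR, adjusted p = 0.0036, 0.0068 and 0.0162). Thus 2 names were higher, where 11.8% of all tested repeats were, and 3 were lower, where 15.3% were. Among 406 other names of DNA transposons, 13.8% were higher and 23.9% lower in this fit. Helitron-1_DR was at -0.03 ± 0.20 (adjusted p = 0.936). Its value turned on the sibling library: with sibling replicate 1 left out it was -0.27, and with sibling replicate 2 left out 0.32, where the lone sibling is assumed to vary like the mutants.

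These directions are relative to the centre chosen. With plain totals of repeat reads the median of all tested names moved from 0.16 to 0.82, and 1291 names were higher and 321 lower, against 392 and 508 with TMM. Helitron-N1_DR and Helitron-1N1_DR were then at 1.54 and 1.32 and Helitron-1_DR at 0.64, and these 3 passed (edgeR, adjusted p = 0.00118, 0.00198 and 0.0325). Helitron-N3_DR turned to 0.19 (adjusted p = 0.155), while Helitron-2_DR and Helitron-N2_DR stayed negative at -0.32 and -0.18 and did not pass (adjusted p = 0.0511 and 0.273). Without either mutant library, where the siblings alone give the spread, fewer names passed with TMM in edgeR, among the Helitrons and over all tested repeats. Helitron-1N1_DR and Helitron-N3_DR passed in neither of these fits, and Helitron-N1_DR and Helitron-N2_DR did not pass without mutant replicate 2. The values themselves moved little. Without mutant replicate 2 they were 0.88 for Helitron-N1_DR, 0.64 for Helitron-1N1_DR, -0.91 for Helitron-2_DR, -0.73 for Helitron-N2_DR and -0.40 for Helitron-N3_DR. Without mutant replicate 1 they were, in the same order, 1.01, 0.80, -0.93, -0.84 and -0.42.

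Against other DNA transposons the 6 names were spread over most of the range. The table held 406 other names sorted to DNA transposons by their spelling, and 90.1% of these were higher in mutants per scaled gene reads, with a median log2 fold change of 1.76. Of all 412 DNA transposon names, Helitrons included, only 9 had a larger log2 fold change than Helitron-N1_DR and 36 a larger one than Helitron-1N1_DR. For Helitron-1_DR the number was 202, near the middle. It was 305 for Helitron-N3_DR, 361 for Helitron-N2_DR and 370 for Helitron-2_DR. For comparison, the class medians were 1.96 over 94 hAT names, 1.58 over 50 Tc1/Mariner names, 1.64 over 19 EnSpm names and 1.81 over 18 Harbinger names, beside 1.54 for the 6 Helitrons. Summed Helitron reads per read of the other DNA transposons were 0.0240 and 0.0240 in mutants, against 0.0266 and 0.0309 in siblings. Both mutants were below both siblings, with an exact two-sided permutation p of 0.333, the smallest possible here. Helitron-2_DR held 57.4% and 57.0% of the summed Helitron reads in mutants and 68.4% and 69.8% in siblings, so this ratio mostly follows that name. As a share of all repeat reads, Helitron-2_DR and Helitron-N2_DR were lower in both mutants, and the other Helitron names were higher. A sum without Helitron-2_DR was not made.

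**Figure D3:**
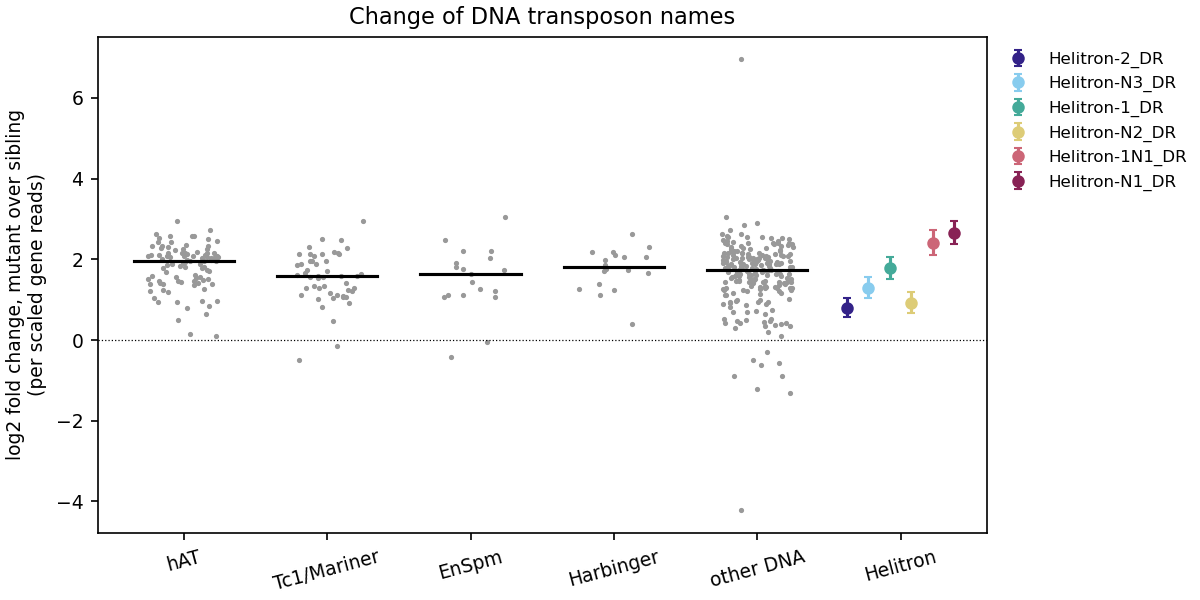
Log2 fold change, mutant over sibling, per scaled gene reads. Grey points are single names of the other DNA transposon classes with the class median as a line, and coloured points are the 6 Helitrons with their standard errors (n = 2 libraries per group). Helitron-N1_DR at 2.66 and Helitron-1N1_DR at 2.41 lie above each class median, and Helitron-2_DR at 0.80 and Helitron-N2_DR at 0.93 lie below each.

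The distance of a Helitron from the median of the other DNA transposons does not depend on where a scaling puts the centre. Over 23 fits, which differed in scaling, filter, test, block and left-out library, Helitron-N1_DR lay 0.69 to 1.02 above that median on the log2 scale and Helitron-1N1_DR 0.57 to 0.73 above it. Helitron-2_DR lay between -1.20 and -0.80, Helitron-N2_DR between -1.01 and -0.74 and Helitron-N3_DR between -0.60 and -0.40. Helitron-1_DR spanned the median, from -0.37 to 0.33. A change of scaling, filter or test could hardly move this distance by construction, so those fits are not separate checks. The ends of all these ranges came from fits with a library left out. The autonomous and non-autonomous names overlapped in their log2 fold changes per scaled gene reads, which ran from 0.80 to 1.78 for the former and from 0.93 to 2.66 for the latter.

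**Figure D4:**
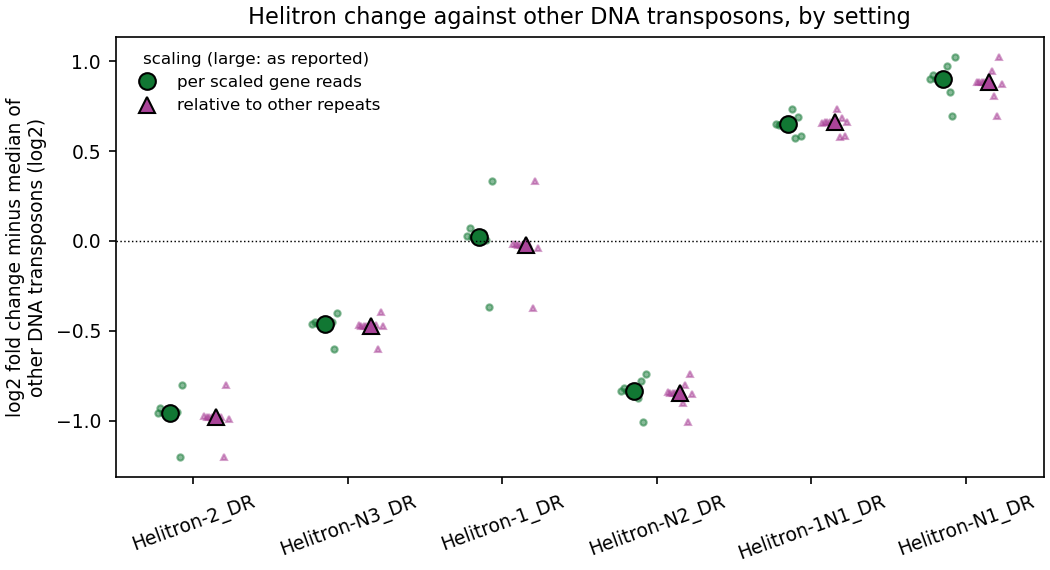
Log2 fold change of each Helitron minus the median log2 fold change of the other DNA transposons in the same fit. Large symbols are the reported fits, small symbols the alternatives, circles the scaling by gene reads and triangles the scaling by repeat reads. Helitron-N1_DR and Helitron-1N1_DR stay above 0 and Helitron-2_DR, Helitron-N2_DR and Helitron-N3_DR below 0 in all 23 fits. Most of these fits repeat nearly the same distance by construction, and those with a library left out moved it most.

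Uhrf1 itself was counted 7 and 9 times in mutant libraries and 2 and 17 times in sibling libraries, too few to check the labels. Of 25 listed genes of DNA methylation, histone H3K9 methylation and heterochromatin, which hold transposons silent, 13 were matched and 9 passed the count filter. Of these 5 rose and 0 fell, while 35.2% of all 8133 tested genes were higher and 25.9% lower (same test and threshold). Named after their values were seen, the 5 were dnmt1, the maintenance methyltransferase, with mutant counts of 58 and 73 and sibling counts of 4 and 14, dnmt3ba, a de novo methyltransferase, with 44 and 52 against 1 and 9, the H3K9 methyltransferase ehmt2 with 15 and 10 against 1 and 1, the chromatin remodeller atrx with 153 and 158 against 26 and 34, and the histone demethylase kdm1a with 82 and 48 against 9 and 9. The count was 9 of 9 with total-count scaling of genes, where 67.6% of all tested genes were higher. It was 0 with the DESeq2 Wald test (4 at an unadjusted p under 0.05; 20.5% of all genes), 0 with no count filter in edgeR (3 unadjusted; 4.69% of all genes) and 0 without mutant replicate 1 in edgeR (1 unadjusted; 3.86% of all genes). It was 1 without mutant replicate 2 (8.32% of all genes). Without sibling replicate 1, uhrf1 itself passed the count filter and was at -2.38 on the log2 scale. That value rests on the 17 reads of sibling replicate 2 alone, and the 2 reads of sibling replicate 1 lie below both mutant counts. Of 14 genes of the piRNA pathway, which guards the germ line against transposons, 12 were matched and 0 passed the count filter, with summed counts of 28 and 11 in mutants against 10 and 17 in siblings. Germ cell markers were counted 7 and 0 times in mutant libraries and were at 0 in both sibling libraries.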

How the data were processed

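Both deposited tables, of genes and of repeat names, hold raw read counts for each library, per the file headers. TopHat2, HTSeq and DESeq2 and the build GRCz10 are named without role or version, per the submitters' processing notes. Not given in the sources used here are the repeat annotation, strand use and how reads matching several copies were assigned. A repeat count depends on these, since names such as Helitron-1_DR and Helitron-1N1_DR may share sequence. Sibling columns are headed ABNYU and mutant columns are not; whether this marks another origin was not tested.

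Repeat names were tested with edgeR 4.0.16 (R 4.3.3; robust quasi-likelihood fit, filterByExpr by group, Benjamini-Hochberg adjustment over 3313 names, threshold 0.05). Library sizes came from TMM-scaled gene reads (921790, 931670, 369890 and 362180 for mutant 1, mutant 2, sibling 1 and sibling 2) or, in the second fit, from TMM-scaled repeat reads. Genes were tested in the same way. Standard errors of edgeR fits were derived from the test, as the size of the log2 fold change over the square root of its F value. They therefore rest on a spread moderated over all tested names and not on 2 libraries per group alone. The fitting steps were also run on simulated counts, scaled by repeat reads, in which most repeats did not change. Such counts do not check the scaling by gene reads or a shift of most repeats. Alternatives were other scalings, count filters, DESeq2 1.42.0, a replicate block and leaving out each library. All 6 members are named by rule. Helitrons as the subject, and the gene and marker lists, were chosen with earlier results of these data known. Replicates differed beyond sampling noise (chi-square per degree of freedom over repeats 8.52 for mutants and 62.9 for siblings).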

Additional observations from a re-analysis of the deposited data

How the results depend on the processing

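Per scaled gene reads, the 6 names kept their direction under each alternative run, and 54 of 60 single-name values also kept their side of the threshold. The 6 that did not were Helitron-2_DR and Helitron-N2_DR without either mutant library and with a replicate block. Same-numbered libraries did not deviate together (correlation -0.06 over 1333 repeats). The labels state no pairing, so the number is not taken as one. The correlation cannot exclude a shared clutch, since the siblings differed widely from each other. With the replicate block 4 names were higher, where 63% of all tested repeats were. Helitron-2_DR was then at 0.80 (edgeR, adjusted p = 0.0919) and Helitron-N2_DR at 0.93 (adjusted p = 0.0543). Relative to other repeats the counts of 2 higher and 3 lower stood, beside 379 and 466 of all 3313 tested repeats. When a library was left out, the log2 fold changes of the 6 names ran from 0.79 to 2.90. Their median was 3.17 with total-count scaling of genes, beside 3.53 over all repeats. It was 1.56 to 1.72 when a library was left out, beside 1.83 to 2.41 over all repeats.

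Relative to other repeats, the median of the 6 names was -0.38 to -0.04 when a library was left out. The median of all tested repeats was then 0.059 to 0.46. Which names passed changed with the library left out, as did the share of all repeats that passed. With total-count scaling of repeats 0 were lower and the median was 0.42. Scaling to Helitron-2_DR reads left that name out and set the centre at the Helitron with the smallest change. That 0 of the remaining Helitrons were lower there was fixed by this choice. Their median was 0.97, beside 1.12 over all 3312 tested repeats, of which 255 were lower. Helitron-1_DR, Helitron-N2_DR and Helitron-N3_DR were then at 0.97, 0.13 and 0.50. Helitron-1_DR, near 0, turned to 0.0075 with RLE scaling, 0.0057 with the replicate block, 0.64 with total counts, and 0.052, 0.027 and 0.32 without mutant replicate 1, mutant replicate 2 and sibling replicate 2; without sibling replicate 1 it was -0.27. Helitron-N3_DR turned to 0.19 with total counts. With TMM over interspersed repeats, added later, the counts were again 2 and 3. DESeq2 gave the same counts of Helitron names as edgeR in both scalings. Scaling choice, by construction, shifts all names together. Summed Helitron reads per scaled gene reads ranged from 1.01 to 1.14 on the log2 scale when a library was left out, the Helitron share of repeat reads from -0.16 to 0.083, and Helitron reads per read of other DNA transposons from -0.36 to -0.15. Silencing genes that rose numbered 9 with total-count scaling, 0 with no count filter, 0 with DESeq2 and 0 to 5 when a library was left out. The causes of these changes were not tested. With 2 libraries per group, exact tests over libraries cannot go below 0.333.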
